A study of Drosophila melanogaster with 12 samples.

Results

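The 5 genes described here are Hr38, sr, cbt, kay and Jra, transcription factor genes of the immediate early class. They were taken by name from a table of 16272 gene names, and all 5 were found and passed the filter on low counts that left 10528 genes for testing. Immediate early genes are transcribed within minutes of a stimulus, without new protein synthesis, and many are used as marks of recent activity in neurons. Hr38 is the fly member of the NR4A nuclear receptor family and sr (stripe) the fly member of the EGR zinc-finger family, and transcripts of both serve as activity marks in insect brains. The gene cbt (cabut) encodes a zinc-finger protein of the Sp and KLF class, while kay (kayak) and Jra encode Fos and Jun, the basic leucine zipper proteins that pair as AP-1. AP-1 acts downstream of the kinase JNK and, in Drosophila glia, takes part in the response to axon injury.

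RNA was sequenced from 4 populations of nuclear-labelled cells, sorted by fluorescence from dissociated brains of Drosophila melanogaster adults aged 3 days of the strain Canton-S. Each population came from its own Gal4 driver line crossed to UAS-Red Stinger, so populations cannot be told apart from driver lines, and the names of the T4 and Pm2 lines are not given in the sources used here. T4 are columnar neurons of the motion pathway and Pm2 are neurons of the proximal medulla; the Elav driver gave all neurons and the Repo driver all glia, which the series calls controls. Each population had 3 libraries, and nothing says whether they came from separate animals, so p-values measure the spread between libraries only. T4 and Pm2 cells may also be present among the Elav-sorted cells. No population is labelled as stimulated, and the labels state neither the light regime nor the hour of dissection.

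Library totals were 35012892 to 57811629 counts. Levels are given in CPM, counts per 1000000 of the scaled library total. In bulk RNA, fewer cells of a type and less RNA per cell cannot be told apart. The labels held against their markers: repo, the glial homeodomain factor, stood at 3427 CPM in glia and below 1 CPM in the 3 neuronal populations, nSyb, a synaptic vesicle gene, at 2997 CPM in neurons against 45.8 in glia, and Gad1, the GABA synthesis enzyme, at 12445 CPM in Pm2 against 20.9 in T4, whose 6 markers included 4 called higher than in neurons. The other GABA marker, VGAT, stood at 494 CPM in Pm2, 258 in neurons and 118 in T4. It was not called between T4 and Pm2 (edgeR adjusted p = 0.0505) or between Pm2 and neurons (0.348). Of the 6 T4 markers, 4 were higher in T4 than in Pm2, 1 was not called and bi was lower, at 146 CPM against 403. In T4, VAChT of acetylcholine vesicles stood at 573 CPM and VGlut of glutamate vesicles at 28.7. The 6 pan-neuronal markers summed to 249 to 304 CPM in glia and 11612 to 12052 CPM in neurons, where elav stood at 641 CPM against 138 in glia. The 6 glial markers summed to 502 to 805 CPM in neurons, 97.4 to 114 in T4, 30.0 to 54.4 in Pm2 and 31917.5 to 39068.8 in glia. Most of the sum in neurons came from Eaat1, at 353, 484 and 626 CPM. The photoreceptor opsin gene ninaE reached at most 3.22 CPM and the haemocyte gene Hml at most 0.62 CPM as a population mean. Of the 6 photoreceptor markers norpA went the other way, at 728 CPM in T4, 462 in Pm2, 492 in neurons and 315 in glia. The 6 haemocyte markers together reached 102 to 122 CPM in neurons, nearly all from Pxn, against at most 20.1 CPM in any other library. Glia replicate 2 stood apart over all genes, with a chi-square per degree of freedom of 314 and 241 against the other glia libraries, which gave 91.4 against each other. Without it the 5 genes kept their calls between glia and neurons, at log2 -4.82 for Hr38, -2.71 for sr, -1.53 for cbt, 2.98 for kay and 1.08 for Jra.

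The 5 genes fell into opposite patterns. Hr38, sr and cbt were higher in all 3 neuronal populations than in glia, whereas kay and Jra were higher in glia. All 5 differed among the 4 populations (edgeR quasi-likelihood test, adjusted p from 6.44e-09 for kay to 2.9e-05 for sr), as did 79.5% of all genes tested.

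**Figure D1:**
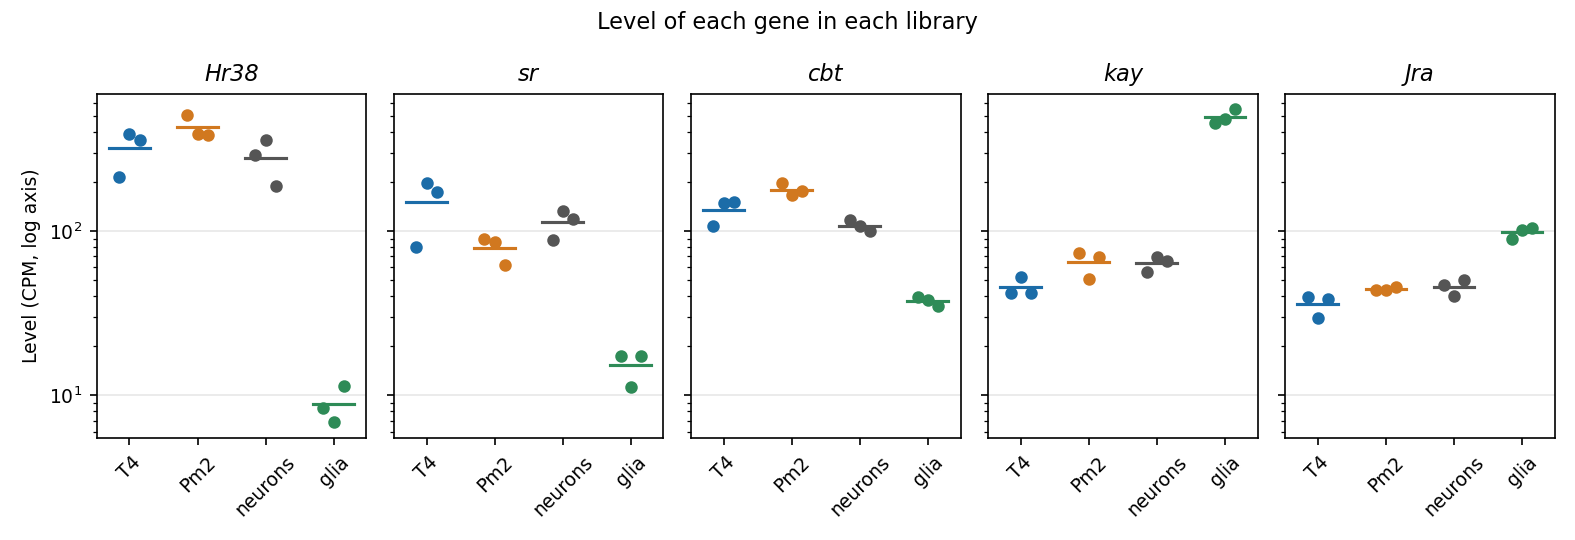
Level of each gene in CPM, on a log axis, in the 12 libraries; points are libraries and bars are population means. The glia libraries lie below the others for Hr38, sr and cbt and above them for kay and Jra.

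Hr38 lies on 2L (20683462 to 20714588, minus strand, FBgn0014859, BDGP6 assembly). It stood at 212, 390 and 357 CPM in T4 replicates 1 to 3. In Pm2 it stood at 507, 388 and 386 CPM, and in neurons at 291, 357 and 187 CPM. The glia libraries held 8.35, 6.85 and 11.4 CPM. Every neuronal library thus lay far above every glia library, while T4, Pm2 and neurons covered neighbouring ranges. The population means were 427 ± 69.0 CPM in Pm2, 319 ± 94.5 in T4, 278 ± 85.7 in neurons and 8.86 ± 2.30 in glia (SD, n = 3 each). In Pm2 the mean was above that of 95.7% of the genes tested. The neighbours in that order did not pass the test, with edgeR adjusted p = 0.277 between T4 and Pm2 and 0.668 between T4 and neurons. The 95% interval of the log2 difference between T4 and neurons ran from -0.42 to 0.82, and that between Pm2 and neurons from -0.0038 to 1.24. Against neurons, Hr38 was 31.4-fold lower in glia (log2 -4.97 ± 0.34 SE, edgeR adjusted p = 1.61e-07).

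The gene sr lies on 3R (18090803 to 18135583, plus strand, FBgn0003499). Besides its link to neuronal activity it is known for its role in fly tendon cells, where muscles attach. T4 replicates 1 to 3 held 79.8, 196 and 174 CPM. The Pm2 libraries held 89.6, 85.8 and 62.1 CPM, and the neuron libraries 88.0, 133 and 118 CPM. In glia sr stood at 17.3, 11.2 and 17.3 CPM. T4 replicate 1 therefore lay among the Pm2 libraries, below the other T4 libraries. The order of the means was T4 (150 ± 61.8 CPM), neurons (113 ± 22.9), Pm2 (79.2 ± 14.9) and glia (15.3 ± 3.48). It differed from that of Hr38, which was highest in Pm2. Glia lay 7.40-fold below neurons (log2 -2.89 ± 0.33 SE, edgeR adjusted p = 1.36e-05).

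The gene cbt lies on 2L (476446 to 479688, minus strand, FBgn0043364). It stood at 108, 148 and 149 CPM in T4 and at 195, 166 and 175 CPM in Pm2. Neurons held 116, 107 and 100.2 CPM, and glia 39.7, 38.2 and 35.1 CPM. The Pm2 libraries lay above all libraries of the other populations, and the T4 and neuron libraries overlapped. Its means were 179 ± 14.8 CPM in Pm2, 135 ± 23.6 in T4, 108 ± 7.95 in neurons and 37.7 ± 2.31 in glia. In glia cbt was 2.86-fold lower than in neurons (log2 -1.52 ± 0.14 SE, edgeR adjusted p = 2.04e-06), the smallest of the 3 decreases.

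The Fos gene kay lies on 3R (29765995 to 29794113, plus strand, FBgn0001297). Glia held 458, 481 and 552 CPM, a mean above that of 96.4% of the genes tested. T4 held 41.9, 52.3 and 42.2 CPM, Pm2 73.3, 51.2 and 69.3 CPM, and neurons 56.5, 69.2 and 65.6 CPM. The glia libraries stood far apart, with the T4 libraries at or near the bottom. Between glia (497 ± 49.2 CPM) and neurons (63.7 ± 6.54) the level differed 7.79-fold (log2 2.96 ± 0.17 SE, edgeR adjusted p = 3.76e-08). Pm2 (64.6 ± 11.8 CPM) and neurons lay next to each other (edgeR adjusted p = 0.941, 95% interval of the log2 difference from -0.32 to 0.36).

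The Jun gene Jra lies on 2R (10096480 to 10098556, plus strand, FBgn0001291). It stood at 39.6, 29.7 and 38.6 CPM in T4 and at 43.8, 43.8 and 45.8 CPM in Pm2. Neurons held 46.9, 40.2 and 50.5 CPM, and glia 89.8, 102 and 105 CPM. The glia libraries again lay above all others, by a smaller step than for kay. Glia (99.0 ± 8.08 CPM) exceeded neurons (45.9 ± 5.21) 2.16-fold (log2 1.11 ± 0.14 SE, edgeR adjusted p = 2.62e-05). Among neuronal populations Jra passed no test, with means of 35.96 ± 5.47 CPM in T4 and 44.4 ± 1.14 in Pm2.

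The library kit does not mark strand, so reads from overlapping genes on opposite strands cannot be told apart. Hr38 shares 168 exon bases with CG2617 on the opposite strand, whose highest population mean was 10.1 CPM and highest library 11.1 CPM. Jra shares 39 exon bases with RpLP0-like, also on the opposite strand. Its highest population mean was 18.5 CPM, in Pm2, and its highest library 23.5 CPM, in glia. Exons of sr, kay and cbt overlap no exon of another gene in the annotation.

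The genes also differed in how much the libraries of a population varied. The coefficient of variation (CV) of Hr38 was 29.6% in T4, 16.2% in Pm2 and 30.8% in neurons. Genes of like level, within 2-fold of its mean in the same population, had median CVs of 8.03%, 5.10% and 8.45%. The Hr38 CV exceeded that of 99.9% of 1041 such genes in T4, 97.4% of 763 in Pm2 and 99.6% of 1121 in neurons. For sr the CV was 41.2% in T4, above that of all 1751 genes of like level, whose median was 8.70%. It was 18.8% in Pm2 and 20.3% in neurons, above 98.2% and 94.6% of such genes. In glia, where both genes were low, their CVs of 26.0% and 22.8% lay near the medians of 30.2% and 24.2%. For kay the CV ranged from 9.90% in glia to 18.2% in Pm2, where it exceeded that of 97.7% of genes of like level, and was 13.0% in T4 (above 63.0% of such genes) and 10.3% in neurons. For cbt it ranged from 6.14% in glia to 17.5% in T4, above 92.0% of such genes, and was 8.25% in Pm2 (above 74.7%). The CV of Jra ranged from 2.57% in Pm2 to 15.2% in T4, above 7.89% and 71.6% of such genes. Each CV rests on 3 libraries.

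**Figure D2:**
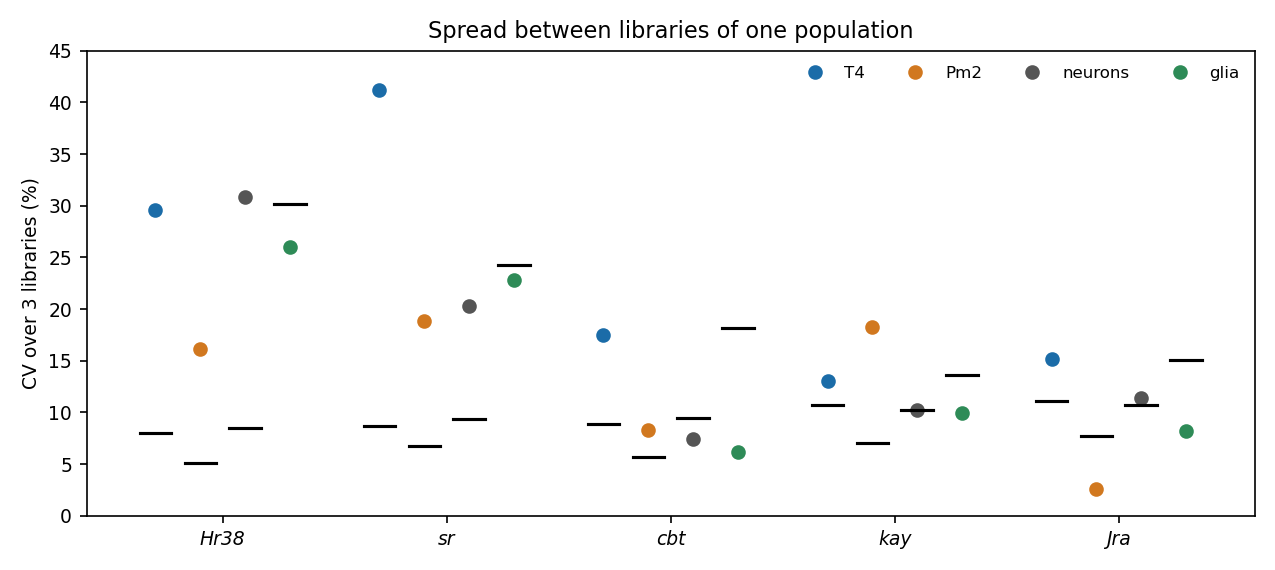
Coefficient of variation over the 3 libraries of each population (points, in percent), with the median over genes within 2-fold of the same level (black bars). Hr38 and sr lie far above the bars in T4, Pm2 and neurons, at 16.2% to 41.2% against bars of 5.10% to 9.33%, and below them in glia.

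In T4, replicate 1 was the lowest library for Hr38, sr, cbt and kay and the highest for Jra. Its deviations from the T4 mean of log2 levels were -0.54 for Hr38, -0.80 for sr, -0.31 for cbt, -0.11 for kay and 0.15 for Jra. Among the neuron libraries, replicate 2 was highest for Hr38, sr and kay, with deviations of 0.41, 0.26 and 0.12. Hr38 and sr parted in neurons replicate 3, where Hr38 deviated by -0.52 and sr by 0.08. T4 replicate 1 did not stand apart over all genes: chi-square per degree of freedom was 58.4 and 62.2 against the other T4 libraries, which gave 63.0 against each other. Pm2 replicate 1 did, at 54.9 and 63.6, where the other Pm2 libraries gave 18.1 against each other. It also held the highest Hr38 level in Pm2, at 507 CPM against 388 and 386. Neurons replicate 1 gave 91.7 and 106.7, and the other neuron libraries 46.7 against each other.

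Heat-shock genes respond to heat and other stress, which handling of tissue can bring. Their summed level was 1628 to 1754 CPM in T4 and 1789 to 1869 in neurons, against 3815 to 4041 in Pm2 and 4635 to 5261 in glia. Most of each sum came from Hsp83, at 1542, 1378, 3160 and 4537 CPM. In T4 replicate 1 the sum was 1628 CPM, the lowest of the T4 libraries. The part of stress genes in the levels of the 5 genes was not tested.

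All 5 genes were called between glia and neurons, where 68.7% of the genes tested were called, and for all 5 the libraries did not overlap, as for 71.6% of genes. Both neuron types also differed from glia for all 5 genes, against 67.8% of genes for T4 (35.6% higher and 32.2% lower in T4) and 66% for Pm2 (33.8% higher and 32.2% lower in Pm2). Their libraries overlapped with those of glia for none of the 5 genes, and 69.3% and 69% of all genes had no overlap. These comparisons share the glia libraries. Hr38 was 36.1-fold higher in T4 and 48.2-fold higher in Pm2 than in glia, sr 9.83-fold and 5.19-fold, and cbt 3.58-fold and 4.75-fold. The Fos gene kay was 10.9-fold lower in T4 and 7.69-fold lower in Pm2, and Jra 2.75-fold and 2.23-fold lower (edgeR adjusted p at most 5.97e-05).

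The level left in glia can be set beside that of neuronal markers in the same libraries. Hr38 in glia amounted to 3.18% of its level in neurons. The markers nSyb, brp, Syt1, fne and para, genes of synapses and excitability, amounted to 0.949% to 1.62%, and the RNA-binding protein gene elav to 21.5%. For sr the share was 13.5% and for cbt 34.96%. These shares and that of Hr38 lay above those of the 5 markers of synapses and excitability. In the other direction, kay in neurons amounted to 12.8% of its glial level and Jra to 46.3%, while the 6 glial markers amounted to 0.0247% to 6.26%. The highest of these was Eaat1, and the other 5 glial markers amounted to at most 1.26%. The part of neuronal RNA in the glia libraries was not tested.

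**Figure D3:**
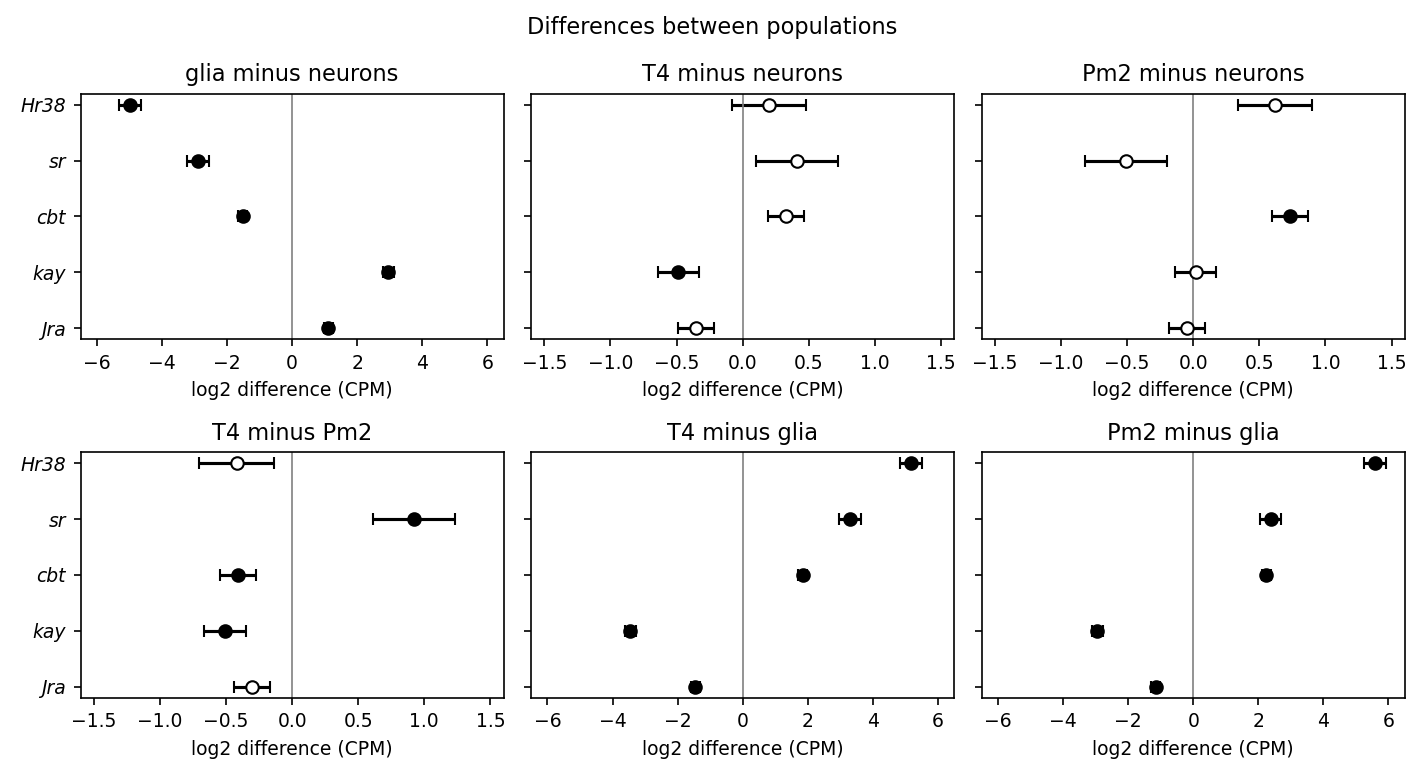
Log2 differences of the 5 genes in the 6 comparisons, with standard errors from edgeR; filled points passed the test and open points did not. The panels without glia use a narrower axis. Hr38, sr and cbt lie on the neuronal side and kay and Jra on the glial side in each panel with glia.

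Differences among the neuronal populations were smaller and less stable. Between T4 and neurons, kay alone was called, as were 23.2% of the genes tested (8.67% higher and 14.5% lower in T4). The libraries of 2 of the 5 genes, kay and Jra, did not overlap, against 46.5% of all genes. It was 1.40-fold lower in T4 (log2 -0.49 ± 0.16 SE, edgeR adjusted p = 0.0433), a call that was lost with median-of-ratios scaling (0.0516), with scaling by library totals (0.059), with no filter (0.0616) and without T4 replicate 1 or 3 or neurons replicate 2 or 3 (0.111 to 0.135). For sr the log2 difference was 0.41 ± 0.31, for cbt 0.32 ± 0.14 and for Jra -0.35 ± 0.14 (edgeR adjusted p = 0.379, 0.111 and 0.0909). Without T4 replicate 1, cbt passed the test at log2 0.46 (edgeR adjusted p = 0.0255).

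Between Pm2 and neurons, cbt alone was called, against 35.6% of the genes tested (15.5% higher and 20.1% lower in Pm2). The libraries of 2 of the 5 genes, Hr38 and cbt, did not overlap, against 58.1% of all genes. It was 1.66-fold higher in Pm2 (log2 0.73 ± 0.14 SE, edgeR adjusted p = 0.00168, at most 0.0101 over its alternatives). Hr38 was at log2 0.62 ± 0.28 and sr at -0.51 ± 0.31 (edgeR adjusted p = 0.112 and 0.226). Both passed the test when only the 6 libraries compared were fitted (adjusted p = 0.0314 and 0.0276).

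T4 and Pm2 were compared directly to see how the neuron types differ. Of the 5 genes 3 were called, among 36.4% of the genes tested (18% higher and 18.4% lower in T4, or 1896 and 1940 genes, which became 2399 and 1528 with library totals). The libraries of 2 of the 5 genes, Jra and cbt, did not overlap, against 57.4% of all genes. Fitted levels of sr were 1.89-fold higher in T4 (log2 0.92 ± 0.31 SE, edgeR adjusted p = 0.0383), although the libraries overlapped. Those of kay were 1.42-fold lower (log2 -0.51 ± 0.16, adjusted p = 0.0252) and those of cbt 1.33-fold lower (log2 -0.41 ± 0.14, adjusted p = 0.0367). Each of the 3 calls was lost under some alternatives. Leaving out T4 replicate 2 or 3 or any Pm2 library ended the call of sr (adjusted p from 0.0629 to 0.15), and so did limma-trend (0.0593). Without T4 replicate 1, sr differed by log2 1.23 (adjusted p = 0.00354). The call of kay was lost without T4 replicate 1 or 3 or Pm2 replicate 1 or 3 (0.0808 to 0.0985) and with library totals (0.0867). That of cbt was lost without T4 replicate 1 or any Pm2 library (0.0542 to 0.126), with median-of-ratios scaling (0.0501), with library totals (0.183) and with no filter (0.0574). Hr38 (log2 -0.42 ± 0.28, 95% interval from -1.04 to 0.20) and Jra (-0.31 ± 0.14) did not pass (edgeR adjusted p = 0.277 and 0.106).

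Hr38 and sr both serve as marks of activity, and their ratio was taken within each library, where scaling between libraries drops out. This ratio and that of kay to Jra were chosen after the values were seen, from 10 possible pairs. Counts per kilobase of exon gave a Hr38 to sr ratio of 2.80, 2.09 and 2.16 in T4 and of 5.95, 4.76 and 6.55 in Pm2. In neurons it was 3.49, 2.82 and 1.67, and in glia 0.510, 0.642 and 0.692. Pm2 libraries had the highest ratios and glia libraries the lowest, and neither range overlapped another. The ratio was 2.45-fold lower in T4 than in Pm2 (exact two-sided permutation test, p = 0.1, the smallest that 3 against 3 libraries allow). T4 and neurons overlapped (exact p = 0.8).

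The ratio of kay to Jra per kilobase was 1.07, 0.992 and 1.11 in glia. It was 0.223 to 0.372 in T4, 0.247 to 0.353 in Pm2 and 0.254 to 0.363 in neurons. The glia libraries stood apart and the neuronal populations overlapped. Between glia and neurons the ratio differed 3.604-fold (exact two-sided permutation test, p = 0.1, the smallest possible here). Counts of Fos and Jun per kilobase of exon were thus near parity in glia, whereas in the neuronal populations those of Jun were higher. The exon length covers all annotated transcripts of a gene, 7789 bases over 5 transcripts for kay and 1642 over 3 for Jra. Which transcripts were present was not tested, so these ratios are not ratios of transcript numbers.

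**Figure D4:**
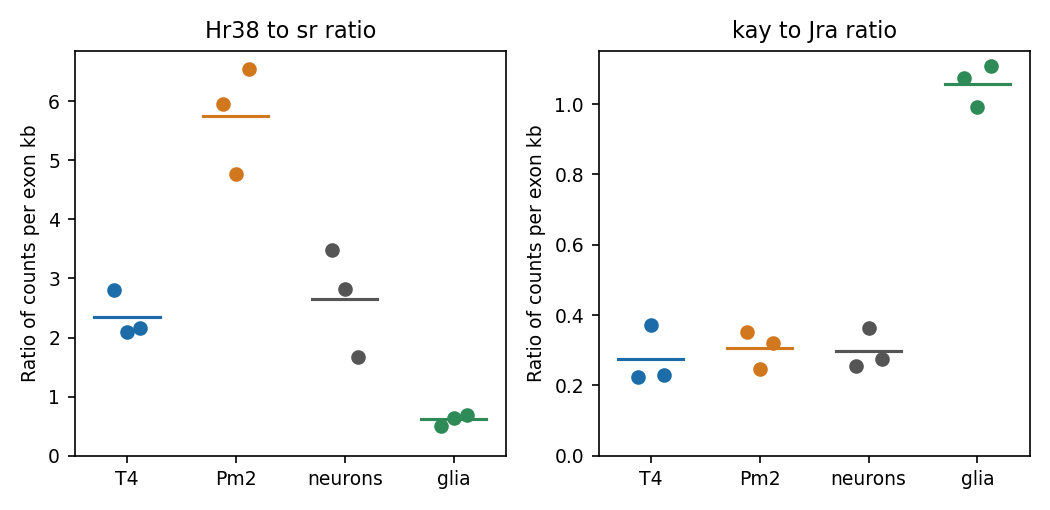
Ratio of counts per kilobase of exon within each library for Hr38 to sr and for kay to Jra; points are libraries and bars are means. The Hr38 to sr ratio is highest in Pm2, at 4.76 to 6.55, and the kay to Jra ratio is highest in glia, at 0.992 to 1.11.

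Levels per kilobase of exon also give an order of the genes within a population, with the same limit on exon length. In T4 it ran from cbt (41.6 ± 7.29 CPM per kilobase) and Hr38 (41.5 ± 12.3) through Jra (21.9 ± 3.33) and sr (18.5 ± 7.62) to kay (5.84 ± 0.76). The cbt and Hr38 levels lay within their spread, as did those of Jra and sr. In glia the order was kay (63.8 ± 6.32) and Jra (60.3 ± 4.92), within their spread, then cbt (11.6 ± 0.71), sr (1.88 ± 0.43) and Hr38 (1.15 ± 0.30). Kay thus had the lowest mean per kilobase in T4, Pm2 and neurons and headed the list in glia. In Pm2 kay (8.30 ± 1.51) and sr (9.76 ± 1.84) lay within their spread.

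Genes with the most similar pattern were found by the root mean square difference of log2 CPM over the 12 libraries, after each gene's mean was removed. The split between glia and neurons weighs heavily in this measure. Nearest to Hr38 were CG13532, Ent3 and CG3955, at 0.34, 0.34 and 0.35, against a median of 2.28 over all genes. For sr they were CaMKI, CG30099 and l(2)efl, at 0.31, 0.34 and 0.36 (median 1.40). CaMKI, a calcium-dependent kinase gene, stood at 880 CPM in T4, 495 in Pm2, 737 in neurons and 89.8 in glia. For cbt they were Rab21, CG2091 and CG9140, at 0.17 to 0.19 (median 1.05). Nearest to kay were Dmtn, CG3308 and CG42265, at 0.19 to 0.21 (median 1.54), and nearest to Jra were CG6523, Wbp2 and rush, at 0.16 to 0.17 (median 0.90). No member was among the nearest genes of another, the closest pair being sr and cbt at 0.72.

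The pathways that lead to these genes were described from lists of related genes, some of which share members. Between glia and neurons 30.9% of all genes tested were higher and 37.8% lower in glia, with a median log2 difference of -0.17. In T4 against neurons 8.67% were higher and 14.5% lower, and in Pm2 against neurons 15.5% and 20.1%. Those in T4 against Pm2 were 18% and 18.4%. All list counts below are to be read beside these shares. Of 20 genes of calcium and cAMP signalling to CREB, the factor that drives many immediate early genes, 10 were lower in glia, 6 higher and 4 not called (median -0.34). Calmodulin (Cam) stood at 99.1 CPM in glia against 3183 in neurons, the calcineurin subunit gene CanB at 8.32 against 714, and the adenylate cyclase gene rut at 7.87 against 168 (log2 -5.01 ± 0.14, -6.42 ± 0.23 and -4.41 ± 0.23 SE; edgeR adjusted p at most 2.04e-08). Between T4 and Pm2, 7 of the list were higher and 8 lower in T4. The kinase subunit gene Pka-R2 stood at 361 CPM in T4 and 132 in Pm2, while the CREB coactivator gene Crtc stood at 101 against 193 and rut at 189 against 673 (edgeR adjusted p at most 3.92e-05). Against neurons, 1 of the list was higher and 5 lower in T4, and 5 higher and 8 lower in Pm2. CaMKII, a calcium-dependent kinase gene, was among those lower in T4, at 285 CPM against 549.

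The ERK and JNK kinase cascades also lead to AP-1. Of 13 ERK pathway genes, 8 were higher and 4 lower in glia than in neurons (median log2 0.70). The 4 lower genes were Ras85D and the kinase genes phl, Dsor1 and rl, the last being the ERK gene itself. Their log2 differences were -0.41, -1.26, -1.37 and -1.36 (edgeR adjusted p at most 0.00169). The Ets factor gene pnt reached 879 CPM in glia against 1.15 in neurons, the Sprouty gene sty, an inhibitor of the cascade, at 1874 against 111, and the ERK phosphatase gene Mkp3 at 1026 against 361 (edgeR adjusted p at most 9.07e-07). Of 15 JNK pathway genes, 10 were higher and 3 lower (median 0.96). The TNF receptor gene wgn stood at 314 CPM in glia against 0.348, and the metalloprotease gene Mmp1, a JNK target in flies, at 164 against 4.84. The JNK gene bsk itself was lower, at 69.8 CPM in glia against 385 (log2 -2.46 ± 0.13 SE, edgeR adjusted p = 2.21e-08).

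Within neurons, the JNK phosphatase gene puc, a target of AP-1, was lower in T4. It stood at 8.43 CPM in T4, 72.4 in neurons and 63.8 in Pm2 (log2 -3.10 ± 0.20 and -2.92 ± 0.20 SE; edgeR adjusted p = 3.86e-06 and 8.73e-07). In the JNK list of 15, 3 genes were higher and 2 lower in T4 than in neurons, against 8.67% and 14.5% of all genes. In Pm2 against neurons 1 was higher and 3 lower (15.5% and 20.1% of all genes). Between T4 and Pm2, 2 were higher and 2 lower in T4 (18% and 18.4% of all genes). Of the ERK list, 6 of 13 were higher in T4 than in Pm2 and 7 not called, among them Mkp3 at 328 CPM against 117 and the Ets repressor gene aop at 70.2 against 28.8. Against neurons, 1 ERK gene was higher and 2 lower in T4, and 6 were lower in Pm2.

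**Figure D5:**
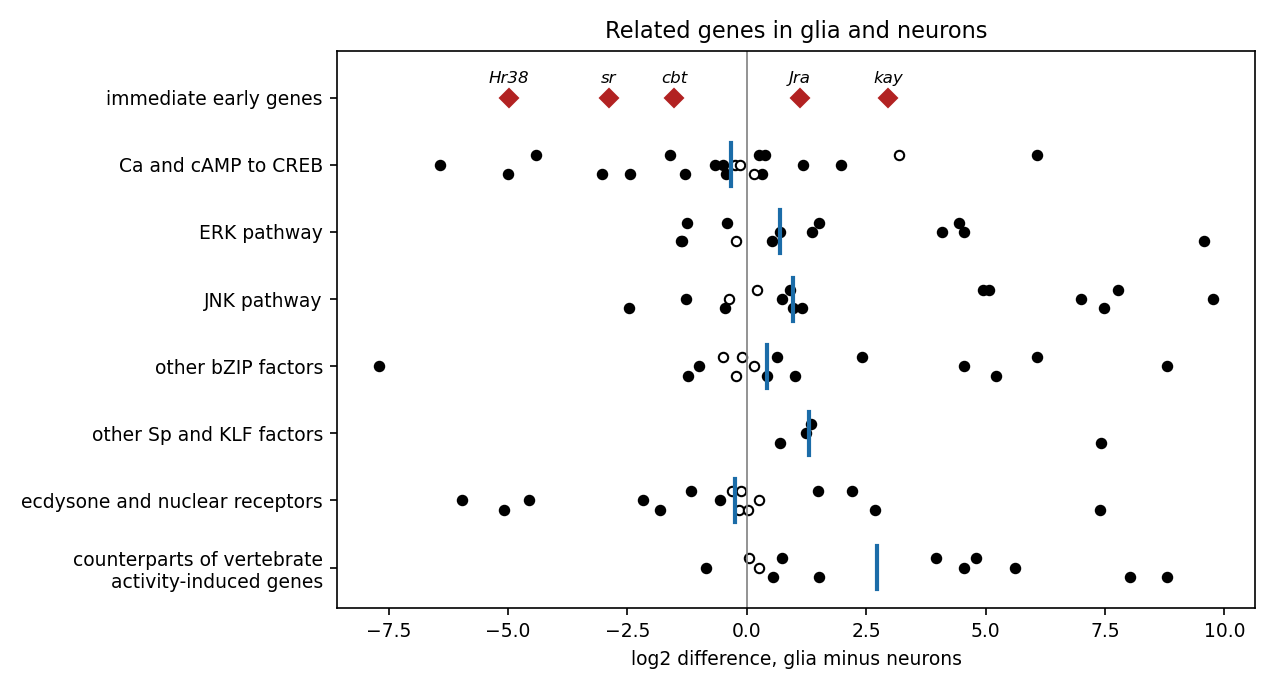
Log2 difference between glia and neurons for the 5 genes (red) and for 7 lists of related genes; filled points passed the edgeR test, open points did not, and blue bars are list medians. The counterparts of vertebrate activity-induced genes have a median of 2.74, and calcium and cAMP genes a median of -0.34.

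The relatives of the 5 genes were described by family. Of 15 tested bZIP factors other than kay and Jra, 8 were higher in glia than in neurons and 3 lower (median log2 0.43). The oxidative stress factor gene cnc stood at 1109 CPM in glia against 29.6, Atf3, whose product can pair with Jun, at 219 against 9.37, and Xbp1, of the unfolded protein response, at 1131 against 212 (edgeR adjusted p at most 8.31e-08). In T4 against neurons 1 bZIP factor was higher and 5 lower, in Pm2 against neurons 3 and 7, and in T4 against Pm2 5 and 5. Of 8 other Sp and KLF genes in the table, 4 passed the filter on low counts, and all 4 were higher in glia than in neurons (median log2 1.30), where cbt was lower. In T4 against neurons 2 of the 4 were lower, in Pm2 against neurons 2 were higher and 1 lower, and in T4 against Pm2 2 were lower. Of these luna, a KLF gene, stood at 6.67 CPM in T4, 413 in Pm2, 64.6 in neurons and 153 in glia. Between T4 and Pm2 it differed by log2 -5.95 ± 0.29 SE (edgeR adjusted p = 4.98e-08), where cbt differed by -0.41.

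Among 16 tested genes of ecdysone response and nuclear receptors, 7 were lower and 4 higher in glia than in neurons (median log2 -0.24). Hr46 (Hr3) stood at 0.863 CPM in glia against 54.7, and Hnf4 at 255 against 1.501. The gene usp encodes the partner with which Hr38 can pair, and stood at 77.6 CPM in T4 against 125 in neurons (log2 -0.69 ± 0.14 SE, edgeR adjusted p = 0.00457). It was also lower in Pm2, at 84.0 CPM (log2 -0.57 ± 0.14 SE against neurons, edgeR adjusted p = 0.00697), and the difference between T4 and Pm2 did not pass the test (adjusted p = 0.55). In T4 against neurons 2 of the list were higher and 5 lower, in Pm2 against neurons 2 and 7, and in T4 against Pm2 5 and 2. The ecdysone-induced factor gene Eip93F stood at 472 CPM in T4 against 19.2 in Pm2 (log2 4.62 ± 0.12 SE, edgeR adjusted p = 2.7e-09).

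Fly counterparts of genes that neuronal activity induces in vertebrates were mostly higher in glia. Of 12 tested, 9 were higher in glia than in neurons, 1 lower and 2 not called (median log2 2.74). Arc1, a fly counterpart of the synaptic gene Arc, reached 756 CPM in glia against 2.88 in neurons, and dm (Myc) at 453 against 29.1 (log2 8.03 ± 0.46 and 3.96 ± 0.27 SE; edgeR adjusted p = 4.07e-08 and 2.01e-07). Both were highest in glia replicate 2, Arc1 at 1106 CPM against 523 and 638 in replicates 1 and 3, and dm at 552 against 332 and 476. In Pm2 against neurons 2 were higher and 2 lower, and Arc1 stood at 11.2 CPM in Pm2. In T4 against neurons 2 were higher and 5 lower, and in T4 against Pm2 2 and 4, with Arc1 at 0.747 CPM in T4 (log2 -3.89 ± 0.41 SE against Pm2, edgeR adjusted p = 2.42e-05).

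Of 14 tested heat-shock genes, 12 were lower in T4 than in neurons and 2 not called, and 9 were lower in T4 than in Pm2. Of all genes tested, 14.5% and 18.4% were lower in T4 in these comparisons. Hsp26, a small heat-shock protein gene, stood at 4.45 CPM in T4, 37.9 in Pm2, 89.9 in neurons and 29.8 in glia. In Pm2 against neurons 3 were higher and 4 lower, beside 15.5% and 20.1% of all genes. The counts in glia against neurons were 2 and 7, beside 30.9% and 37.8% of all genes. The order of Hsp26 over the populations was that of none of the 5 genes. The summed heat-shock level was highest in glia, then Pm2, neurons and T4 (medians of 5115, 3840, 1868 and 1741 CPM). That was also the order of the kay means (497, 64.6, 63.7 and 45.5 CPM), where Pm2 and neurons lay next to each other. Between these populations kay was not called (edgeR adjusted p = 0.941). Hsp83, which gave most of each sum, had another order, with 1542 CPM in T4 and 1378 in neurons. A link between kay and the heat-shock genes was not tested. Counts of the near-identical Hsp70 copies are uncertain, since reads may be split between them.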

How the data were processed

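The deposited table holds 1 column of whole-number counts per gene and library. The authors' label calls the values normalized, but their low values show no gaps from rescaling and the totals differ, so they were analysed as counts. The submitters' processing notes list Trimmomatic 0.32, STAR 2.5.2, HTSeq 0.6.1 and the BDGP6 build; their settings are not given in the sources used here. Elav columns were taken as neurons, with the column number as replicate. Testing was limited to genes reaching 10 counts in 3 or more libraries. All 12 libraries entered 1 fit with TMM scaling in edgeR 4.0.16 under R 4.3.3 (two-sided quasi-likelihood test). Calls used a threshold of 0.05 on p-values adjusted by Benjamini-Hochberg over all genes tested. The fit was tested on simulated data. Standard errors come from the difference and its F value. Coordinates and exon lengths come from the Ensembl BDGP6 annotation, in which all 5 names are current symbols. From each list up to 3 called genes per comparison could be named, by smallest adjusted p, and for each of the 5 genes the 3 nearest patterns. The ERK pathway genes lower in glia than in neurons were named in addition. The 5 genes, the lists and the tests were chosen with earlier results of these data known. Alternatives were other scalings and filters, DESeq2 1.42.0, limma 3.58.1, fewer libraries and a replicate block. T4, Pm2 and glia share replicate numbers, but deviations of same-numbered libraries correlated between -0.0484 and 0.0250, so the numbers were not treated as pairs.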

Additional observations from a re-analysis of the deposited data

How the results depend on the processing

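Of 405 recomputed log2 differences of the 5 genes, 368 kept their direction and side of the threshold, 28 lost a call, 3 gained one and 6 changed sign. In the comparisons with glia, all 5 genes were called under every alternative run. Between T4 and neurons the number of genes called among the 5 fell from 1 to 0 with median-of-ratios scaling, library totals or no filter, and was 0 to 1 without single libraries. Between Pm2 and neurons it was 3, against 1, with only the 6 libraries compared. Between T4 and Pm2 it was 3, but 1 with library totals, 0 with the replicate block and 0 to 2 without single libraries. The block gave adjusted p = 0.128 for sr, 0.101 for kay and 0.131 for cbt there, and it left 2692 of 3836 genes called; these libraries share only a number. No other call of the 5 genes changed under the block. Sign changes were small and not called. Hr38 between T4 and neurons was at log2 -0.020 without neurons replicate 3, in a range from -0.020 to 0.42 without single libraries. For kay between Pm2 and neurons the values were -0.078 with library totals, -0.081 without Pm2 replicate 1, -0.034 without Pm2 replicate 3 and -0.060 without neurons replicate 1, in a range from -0.081 to 0.17. Jra there was at 0.029 without neurons replicate 3, in a range from -0.13 to 0.029. The cause of these changes was not tested. Library totals moved the median log2 difference of all genes between glia and neurons from -0.17 to -0.52, and changed the split between T4 and Pm2 from 1896 higher and 1940 lower to 2399 and 1528. The ratios within libraries, an alternative added after seeing the data, were recomputed without single libraries. The log2 difference of Hr38 to sr between T4 and Pm2 was -1.29, in a range from -1.43 to -1.19. That of kay to Jra between glia and neurons was 1.85, in a range from 1.75 to 2.00. Leaving out 1 of 3 libraries cannot move a mean by more than the spread between libraries. A shift smaller than that spread is therefore no sign of stability. With 3 libraries per population, intervals among the neuronal populations remain wide.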
